A study of Mus musculus with 12 samples.

Results

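The immediate early and AP-1 genes described here are the 10 genes named Fos, Fosb, Fosl1, Fosl2, Jun, Junb, Jund, Egr1, Atf3 and Ier2, each of which has 1 identifier among the 40760 genes of the count table. The rule uses gene names and no values. Bulk RNA-seq was performed on Pdgfra+ (Cd140a+) cells sorted by flow cytometry from lungs of male C57BL/6 mice, young adults, in 12 libraries that form 4 groups of 3. WT mice and mice labelled Pear1-/- received either vehicle or bleomycin (bleo), a drug that injures the lung when given into the airways and leads to fibrosis. The study compared genotypes and treatments to ask what PEAR1, a receptor of the EGF-repeat family, does in lung mesenchymal cells. Pear1-/- denotes a knockout-first allele present in every cell, in which a trapping cassette sits in an intron of Pear1 and the coding exons themselves remain. The day of harvest and the number of mice behind a library are not given in the sources used here, and nothing says that the 3 libraries of a group came from separate animals, so p-values measure the spread between libraries, which may be technical.

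Immediate early genes are transcribed within minutes of a stimulus, without new protein being made first, through factors such as SRF, the ELK proteins and CREB that are switched on by MAP kinases. Many of their products are themselves transcription factors. AP-1 is a dimer of a JUN protein with a FOS, JUN or ATF protein that binds DNA at the TPA response element, and in fibroblasts it is known for its place downstream of growth factors, stress and matrix signals. Immediate early genes are also known to respond to the handling of tissue, and all 12 libraries came from sorted cells.

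Within the Fos family, Fos encodes the founding partner of JUN, Fosb a close relative, and Fosl1 and Fosl2 encode FRA1 and FRA2, which lack the strong activation domain of FOS. Within the Jun family, Jun encodes the most active subunit, Junb a weaker one that can oppose it, and Jund the subunit usually found in resting cells. Atf3 encodes a stress-induced repressor that pairs with JUN proteins, Egr1 a zinc-finger factor with its own GC-rich site, and Ier2 a small nuclear protein induced together with Fos. In the GENCODE M21 annotation of GRCm38, Jun (chr4:95049034-95052222, minus strand), Junb (chr8:84974484-84978718, minus strand), Jund (chr8:70698949-70700616, plus strand) and Ier2 (chr8:84661331-84662852, minus strand) have no intron in their longest transcript. Fos lies at chr12:85473890-85477273 on the plus strand, Fosb at chr7:19302696-19310051 on the minus strand, Fosl1 at chr19:5447547-5455946 on the plus strand and Fosl2 at chr5:32135801-32157842 on the plus strand. Atf3 lies at chr1:191170296-191218039 on the minus strand.

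Promoters are shown for the 2 members that hold an EGR site, the sequence bound by the EGR1 protein, and for Atf3 and Junb, whose bleo response differed between genotypes. Each is the 250 bases before the start of transcription in the RefSeq table for GRCm38.p6, 5′ to 3′ on the strand of the gene, and capitals mark the EGR site. The windows are chr5:32136222-32136471 for Fosl2 (plus strand), chr7:19310046-19310295 for Fosb (minus strand), chr1:191183334-191183583 for Atf3 (minus strand) and chr8:84978749-84978998 for Junb (minus strand).
Fosl2: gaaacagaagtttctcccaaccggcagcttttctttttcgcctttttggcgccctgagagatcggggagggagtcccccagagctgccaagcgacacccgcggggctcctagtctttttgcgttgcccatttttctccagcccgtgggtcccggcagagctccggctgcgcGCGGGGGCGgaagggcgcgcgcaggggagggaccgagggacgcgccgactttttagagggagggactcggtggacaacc
Fosb: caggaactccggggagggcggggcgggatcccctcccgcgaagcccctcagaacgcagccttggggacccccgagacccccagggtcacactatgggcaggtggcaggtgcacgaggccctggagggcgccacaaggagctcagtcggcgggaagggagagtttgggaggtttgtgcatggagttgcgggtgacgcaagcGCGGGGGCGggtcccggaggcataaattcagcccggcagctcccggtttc
Atf3: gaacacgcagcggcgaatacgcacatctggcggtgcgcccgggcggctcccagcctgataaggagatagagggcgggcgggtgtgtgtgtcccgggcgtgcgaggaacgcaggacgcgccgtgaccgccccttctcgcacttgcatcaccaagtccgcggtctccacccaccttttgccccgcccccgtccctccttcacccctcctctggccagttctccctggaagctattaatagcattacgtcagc
Junb: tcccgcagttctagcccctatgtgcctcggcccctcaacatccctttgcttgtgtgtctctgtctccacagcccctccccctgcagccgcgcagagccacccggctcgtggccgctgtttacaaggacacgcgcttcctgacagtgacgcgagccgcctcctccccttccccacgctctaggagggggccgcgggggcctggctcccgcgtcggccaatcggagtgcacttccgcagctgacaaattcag
The EGR site of Fosl2 lies 79 to 71 bases before the start and that of Fosb 50 to 42 bases before it. The table held 7 of the 10 members, without Fosl1, Egr1 and Ier2, and its start is the first base of the GENCODE gene for Fos and Jun, but not for Fosb, Fosl2, Junb, Jund and Atf3. On either strand, the EGR site, searched as GCGGGGGCG and GCGTGGGCG, was found in 2 of these 7 windows and in 3.06% of all 32851 windows of the same length. The TPA response element, searched as TGAGTCA, was found in 0 of the 7 windows and in 4.46% of all. The cyclic AMP response element TGACGTCA was found in 0 of 7 and 1.55% of all, and the CArG box bound by SRF in 0 of 7 and 1.47% of all. A match describes letters in the window and not binding. The lack of a match says nothing of sites outside the 250 bases or spelled with other letters.

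Between 6702948 and 10447101 reads were counted per library. The label of genotype was checked by the counts of Pear1, whose normalized counts (the deposited count divided by the size factor of the library) were 547 ± 28.8 in WT vehicle (SD, n = 3) against 519.7 ± 24.0 in vehicle libraries with the label Pear1-/-, a log2 difference of -0.08 with adjusted p = 0.47 in edgeR's quasi-likelihood test. In bleo, Pear1 was higher in the libraries labelled Pear1-/- (357 ± 14.2) than in WT (254 ± 14.0). A trapped transcript can still give reads over the exons, and the table holds 1 count per gene, so Pear1 does not check the label and the genotype stands as labelled throughout. WT vehicle replicate 2 stood apart from its group. Set against another library gene by gene, a chi-square per degree of freedom near 1 is what counting noise would give. It was 25.2 and 26.0 against WT vehicle replicates 1 and 3, but between 1.81 and 2.92 against the 3 vehicle libraries labelled Pear1-/-. WT vehicle replicates 1 and 3 gave 1.68, the pairs within the bleo groups between 1.37 and 1.51, and the pairs within Pear1-/- vehicle between 1.48 and 5.46, with replicate 3 of that group in both higher values. Whether WT vehicle replicate 2 carries its right label or holds other material was not tested, and the mean of WT vehicle rests on its label. Counts above 3 were seen for 20643 genes in WT vehicle replicate 2, for 25994 and 26625 genes in replicates 1 and 3, for between 19576 and 20792 genes in the vehicle libraries labelled Pear1-/-, and for fewer in bleo, between 17271 and 17580 in WT and between 17092 and 17386 in Pear1-/-. Pdgfra, which marks the sorted cells, averaged 4565 ± 325 (WT) and 4165 ± 39.1 (Pear1-/-) normalized counts under vehicle, against 1360.1 ± 29.9 (WT) and 2392 ± 18.8 (Pear1-/-) under bleo. Ptprc, which encodes the leukocyte antigen CD45, was detected in every group, with 3303 ± 479 (WT) and 3818 ± 263 (Pear1-/-) under vehicle, and 7616 ± 97.8 (WT) and 3365 ± 109 (Pear1-/-) under bleo. In bulk samples fewer cells of a type and less RNA per cell cannot be told apart.

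All 10 members passed the filter on low counts in the fit of 17418 genes, and none was near the floor of 3 counts in any library. To compare genes, CPM values (counts scaled to the same total in every library) were divided by the exonic length in kilobases. In WT vehicle, Fos stood first with 2236 ± 46.4 CPM per kilobase (SD, n = 3), followed by Junb with 923 ± 12.9, Egr1 with 787 ± 18.2 and Jun with 616 ± 24.9. Atf3 with 361 ± 30.1 and Ier2 with 337 ± 9.44 CPM per kilobase overlapped each other. Below them stood Fosb with 148 ± 1.46, Jund with 27.5 ± 1.70, Fosl2 with 20.2 ± 0.643 and Fosl1 with 3.94 ± 0.500 CPM per kilobase. The members thus differed widely in level, with Fos and Fosl1 at the ends of the order.

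The order changed little with genotype and more with bleo. In Pear1-/- vehicle the levels per kilobase ran from 2159 ± 31.7 for Fos to 4.32 ± 0.275 for Fosl1, with Ier2 (341 ± 20.9) above Atf3 (320.5 ± 2.53). In WT bleo, Atf3 took the third place with 946 ± 21.8 CPM per kilobase, behind Fos with 2137 ± 10.2 and Junb with 1452 ± 41.5, while Egr1 took the fifth with 298 ± 3.98. In Pear1-/- bleo, Atf3 with 487 ± 10.4 and Jun with 485 ± 10.1 CPM per kilobase overlapped, and Jund with 21.7 ± 0.484 stood below Fosl2 with 25.9 ± 0.397. In each group every other neighbour in the order was separated, with no overlap between their libraries.

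**Figure D1:**
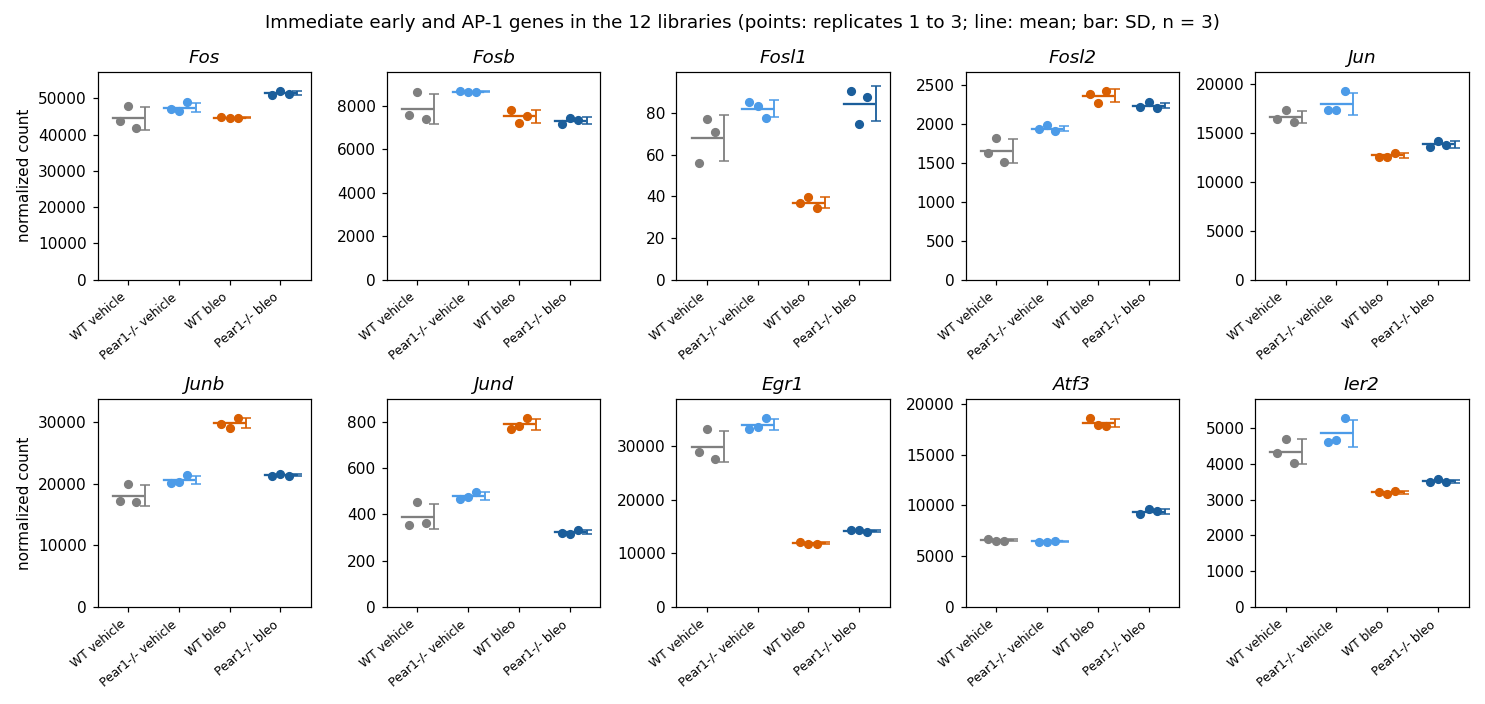
Normalized counts of the 10 genes (vertical axes, linear and starting at 0) in the 3 libraries of each of the 4 groups (horizontal axes). Points are replicates 1 to 3, the line is the mean and the bar the SD. Atf3, Junb and Jund have their highest values in the WT bleo libraries, Fosl1 its lowest there, and Egr1 is low in both bleo groups.

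The make-up of the Fos family was dominated by Fos in every group, while that of the Jun family moved. Fos made up between 92.5% and 93.8% of the Fos family's CPM per kilobase in the means of the 4 groups, and Fosb between 5.03% and 6.36%. Fosl2 made up 0.839% (WT) and 0.922% (Pear1-/-) under vehicle, and 1.19% (WT) and 0.993% (Pear1-/-) under bleo. Junb made up 58.9% ± 1.22 (SD, n = 3) of the Jun family in WT vehicle and 60.2% ± 0.735 in Pear1-/- vehicle, against 74.4% ± 0.242 in WT bleo and 67.2% ± 0.354 in Pear1-/- bleo. Jun made up 39.3% ± 1.33 and 37.9% ± 0.757 in the vehicle groups, 22.9% ± 0.207 in WT bleo and 31.4% ± 0.384 in Pear1-/- bleo. The shares of Jun and Junb in WT bleo did not overlap with those of any other group. Jund contributed between 1.40% and 2.72%. The summed level of the Jun family was 1953 ± 51.9 CPM per kilobase in WT bleo, against 1566 ± 10.3 in WT vehicle, 1588 ± 46.9 in Pear1-/- vehicle and 1542 ± 14.2 in Pear1-/- bleo. The summed level of the Fos family was 2605 ± 22.7 CPM per kilobase in Pear1-/- bleo, against 2408 ± 46.9, 2333 ± 29.9 and 2302 ± 16.2 in WT vehicle, Pear1-/- vehicle and WT bleo. These shares and sums are a description, with no test, and the sums rest on scaling by total counts. Both rest on the exonic length. With the longest transcript as length, Fos averaged 2494 and Fosb 245 CPM per kilobase in WT vehicle. Junb averaged 1173 there, and Jun again 616. The shares were not computed with that length.

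**Figure D2:**
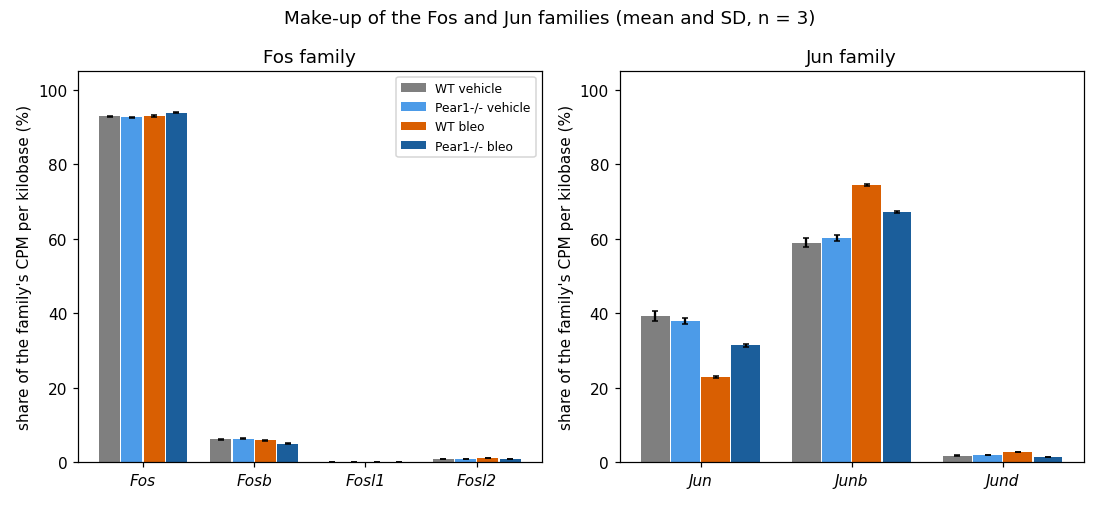
Share of each member in the summed CPM per kilobase of its family (vertical axis, percent, from 0) for the Fos family and the Jun family, in the 4 groups. Bars are means and error bars SDs of 3 libraries. By exonic length, Junb reaches 74.4% of the Jun family in WT bleo, and Fos stays above 92% of the Fos family in all 4 groups. Shares by the length of the longest transcript were not computed.

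The first comparison asked how bleo treatment of WT mice changed these genes. Atf3, Jund, Junb and Fosl2 rose, and Egr1, Fosl1, Ier2 and Jun fell, while Fos and Fosb did not pass the test. Thus 8 of the 10 genes were called at an adjusted p under 0.05, 4 in each direction, where 68.0% of all 17418 genes tested were called (31.4% higher and 36.6% lower). The changes of Atf3, Jund and Egr1 also exceeded 2-fold, as did 33.9% of all genes. The median log2 fold change of the 10 genes was -0.02 and that of all genes -0.07, and the median size of the change without its sign was 0.63 and 0.66. The share of members called, their number past 2-fold and their median thus lay close to those of all genes.

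Atf3 showed the largest rise among the 10 in WT mice. Its normalized counts were 6670.0, 6503 and 6521 in WT vehicle replicates 1, 2 and 3 and 18618, 17913 and 17850.5 in WT bleo, a 2.78-fold rise (log2 fold change 1.48, standard error 0.052, adjusted p = 2.44e-12 in edgeR's quasi-likelihood test). The groups lay far apart, and WT vehicle replicate 2 did not stand out for this gene. Jund had 354, 454 and 363 normalized counts in WT vehicle and 769.6, 782 and 817 in WT bleo (log2 fold change 1.03, standard error 0.086, adjusted p = 5.51e-08). Replicate 2 was the highest vehicle library for Jund but still far below the bleo libraries.

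Junb, the weaker Jun subunit, had 17110.4, 19951 and 16967 normalized counts in WT vehicle and 29631, 28978 and 30611 in WT bleo (log2 fold change 0.74, standard error 0.06, adjusted p = 4.62e-08). Jun moved the other way, from 16395, 17322 and 16132 to 12538, 12540.4 and 12989 (log2 fold change -0.38, standard error 0.057, adjusted p = 3.2e-05). Neither gene had overlapping groups, and the level per kilobase of Junb stood above that of Jun in both. In the Fos family, Fosl2 had 1632, 1825 and 1520.3 normalized counts in WT vehicle and 2396, 2279 and 2432 in WT bleo (log2 fold change 0.53, standard error 0.072, adjusted p = 1.24e-05). Fosl1, the lowest of the members, had 55.8, 77.1 and 71.0 in WT vehicle and 36.7, 39.8 and 34.4 in WT bleo (log2 fold change -0.87, standard error 0.17, adjusted p = 0.0003). Both differences exceeded the spread between libraries, with Fosl2 higher and Fosl1 lower in every bleo library.

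Egr1 (chr18:34859823-34864984, plus strand) showed the largest fall. It had 28914, 33219 and 27683 normalized counts in WT vehicle and 12082, 11798 and 11801 in WT bleo (log2 fold change -1.32, standard error 0.062, adjusted p = 6.62e-11). Ier2 had 4295, 4708 and 4031 in WT vehicle and 3221, 3159 and 3234 in WT bleo (log2 fold change -0.43, standard error 0.072, adjusted p = 8.66e-05). For both genes replicate 2 was the highest vehicle library and the groups did not overlap.

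Fos and Fosb overlapped between the WT groups. Fos had 43767, 48056 and 41847 normalized counts in WT vehicle and 44978, 44561 and 44659 in WT bleo, a log2 difference of 0.02 (standard error 0.049, adjusted p = 0.768). Fosb had 7560.1, 8637 and 7383 in WT vehicle and 7821, 7227 and 7521 in WT bleo, a log2 difference of -0.05 (standard error 0.063, adjusted p = 0.487). For both genes the vehicle spread came mainly from replicate 2, and without that library the log2 fold change of Fos was 0.14 (adjusted p = 0.00249), which made 9 genes called, with the other 8 unchanged in direction. In that fit 76.4% of all genes were called. Markers of other cells moved with this comparison. Ptprc rose by a log2 fold change of 1.22 and Pdgfra fell by 1.74 on the log2 scale, and 14 of 26 leukocyte markers rose while 8 fell. Of 14 fibroblast markers 3 rose and 11 fell, of 9 endothelial markers 7 fell, and of 11 epithelial markers 2 rose and 9 fell, with summed epithelial levels between 5269 and 6582 CPM in WT vehicle and between 1826 and 1853 CPM in WT bleo. Of 5 mesothelial markers 4 fell and 0 rose, and of 10 smooth muscle and pericyte markers 2 rose and 5 fell. The leukocyte list's summed level lay between 13270 and 20581 CPM in WT vehicle, with replicate 2 at the top, and between 18161 and 18492 CPM in WT bleo, and no defining marker was at 0. One gene carried much of this sum: Jchain, which encodes the joining chain of antibodies in plasma cells, lay between 9735 and 15642 CPM in WT vehicle and between 977 and 1049 CPM in WT bleo. The other 25 markers together, split off after their values were seen, lay between 3488 and 4938 CPM in WT vehicle and between 17184 and 17443 CPM in WT bleo, and the macrophage markers Cd68 and Csf1r rose by 2.90 and 3.08 log2 units. The part of these cells in the changes of the 10 genes was not tested.

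The second comparison asked the same of mice labelled Pear1-/-. Egr1 fell again, Ier2, Jun, Jund and Fosb fell, and Atf3, Fosl2 and Fos rose, while Junb and Fosl1 did not pass the test. This made 8 of 10 genes called, 3 higher and 5 lower, where 62.3% of all genes were called (28.9% higher and 33.4% lower). Egr1 alone of the 10 exceeded 2-fold, as did 27.8% of all genes. The median log2 fold change of the 10 genes was -0.10 and of all genes -0.05, and the median size without sign was 0.31 against 0.55.

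Egr1 had 33191, 33684 and 35278 normalized counts in Pear1-/- vehicle and 14327, 14308 and 13927 in Pear1-/- bleo (log2 fold change -1.26, standard error 0.061, adjusted p = 1.71e-10 in edgeR's quasi-likelihood test). Atf3 had 6444, 6383 and 6536 in vehicle and 9127, 9606 and 9473 in bleo (log2 fold change 0.55, standard error 0.051, adjusted p = 2.63e-07). The vehicle and bleo libraries did not overlap for either gene. Jund had 467, 474 and 498 in vehicle and 321, 317 and 332 in bleo (log2 fold change -0.56, standard error 0.087, adjusted p = 4.94e-05), so that every bleo library lay below every vehicle library. Jun, with 17291, 17281 and 19296 in vehicle and 13561, 14209 and 13736 in bleo, fell by 0.37 on the log2 scale (adjusted p = 4.59e-05). Ier2 had 4625, 4664 and 5285 in vehicle and 3499, 3572 and 3489.6 in bleo, and fell by 0.46 on the log2 scale (adjusted p = 5.33e-05). For both genes the vehicle libraries were separated from the bleo libraries, and replicate 3 was the highest vehicle library.

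Smaller changes were called for Fosb, Fosl2 and Fos. Fosb had 8697, 8631 and 8656 normalized counts in Pear1-/- vehicle and 7155, 7444 and 7363 in Pear1-/- bleo, with a log2 fold change of -0.24 (adjusted p = 0.00423). Fosl2 had 1936, 1985 and 1916 in vehicle and 2223, 2285 and 2216 in bleo, with a log2 fold change of 0.21 (adjusted p = 0.0195). Fos had 47097, 46449 and 48910.1 in vehicle and 51011, 52126 and 51250.0 in bleo, with a log2 fold change of 0.12 (adjusted p = 0.0446). None of these groups overlapped, but each call was lost under some setting. With no filter on low values, that of Fosb was lost (-0.19, adjusted p = 0.111). The call of Fosl2 was lost without any 1 of 9 libraries, those of Pear1-/- vehicle and both bleo groups (log2 fold change 0.18 to 0.20, adjusted p between 0.0831 and 0.162). The call of Fos was lost without any 1 of 10 libraries, all except WT vehicle replicates 2 and 3 (0.08 to 0.13, adjusted p between 0.0528 and 0.334). It was also lost with no filter on low values, DESeq2 size factors, DESeq2's Wald test, limma, the replicate block or robust dispersion (0.11 to 0.17, adjusted p between 0.0550 and 0.225). It held in 5 of the 21 alternatives. Of these, the counts recovered from the normalized values equal the deposited ones, so that fit had to agree.

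Junb and Fosl1 overlapped between the groups labelled Pear1-/-. Junb had 20144, 20219.8 and 21311 normalized counts in vehicle and 21247, 21510.2 and 21271 in bleo, a log2 difference of 0.06 (standard error 0.06, adjusted p = 0.415). With scaling by total counts Junb was called at 0.11 (adjusted p = 0.0182), which made 9 genes called, 4 higher and 5 lower, beside 62.2% of all genes. Fosl1 had 85.2, 83.5 and 77.5 in vehicle and 90.6, 74.8 and 87.7 in bleo, a log2 difference of 0.04 (standard error 0.14, adjusted p = 0.818). Here the log2 difference of Ptprc was -0.18 (adjusted p = 0.0846), but 10 of the 26 leukocyte markers rose and 13 fell. The macrophage markers Ctss (2.57), Cd68 (1.74) and Csf1r (1.74) rose, while the neutrophil marker S100a8 (-3.15) and the T cell marker Cd3d (-2.02) fell. Of 14 fibroblast markers 5 rose and 8 fell, with Pdgfra at -0.80 and Col1a1 at 2.18. Of 9 endothelial markers 8 fell, and of 11 epithelial markers 1 rose and 9 fell, with summed epithelial levels between 6229 and 7044 CPM in vehicle and between 794 and 808 CPM in bleo. Of 5 mesothelial markers 2 fell and 0 rose, and of 10 smooth muscle and pericyte markers 4 rose and 5 fell. Their part in the changes of the 10 genes was not tested.

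**Figure D3:**
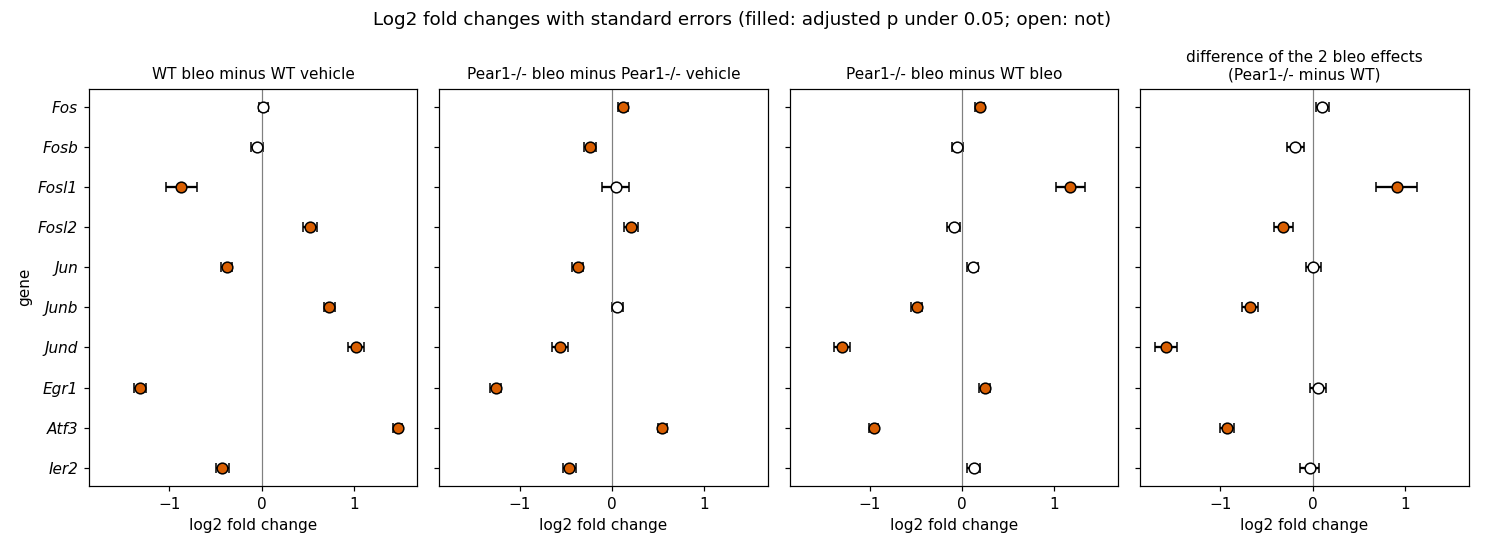
Log2 fold changes of the 10 genes (horizontal axes) with standard errors for 3 group comparisons and for the difference between the bleo effects in the 2 genotypes. Filled points have an adjusted p under 0.05 in edgeR's quasi-likelihood test. Junb, Jund, Atf3 and Fosl2 lie to the left of 0 and Fosl1 to the right in the last panel, and the points of Jun, Egr1 and Ier2 lie close to 0 there.

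The difference between the bleo effects in the 2 genotypes was tested directly, as an interaction in which both effects enter. Jund, Atf3, Junb and Fosl2 had a lower bleo effect in the mice labelled Pear1-/- than in WT, and Fosl1 a higher one. These 5 of 10 genes, 1 higher and 4 lower, stand beside 37.0% of all genes (17.9% higher and 19.1% lower). Of the 74 genes with a mean of 10 log2 CPM or more, 18 were higher and 40 lower. The 5 members at that level were Fos, Jun, Junb, Egr1 and Atf3, of which Junb and Atf3 were called. Jund, Fosl2 and Fosl1 lay below that level. With libraries scaled by total counts alone, which moved the median of all genes from -0.00 to 0.15, the split of the 10 members was 3 higher and 3 lower, beside 37.6% of all genes called. Jund showed the largest difference, -1.59 in log2 units (standard error 0.12, adjusted p = 2.29e-07 in edgeR's quasi-likelihood test): it rose in WT bleo and fell in Pear1-/- bleo. Atf3 rose in both genotypes, and its rise was smaller in Pear1-/-, with a log2 difference of -0.93 (standard error 0.072, adjusted p = 2.45e-07). For Junb the difference was -0.68 (standard error 0.085, adjusted p = 2.32e-05). Fosl1, whose fall was called in WT alone, differed by 0.91 (standard error 0.22, adjusted p = 0.00483). Markers of cell types showed such differences too: Ptprc differed by -1.40 (adjusted p = 7.85e-07) and Pdgfra by 0.94 (adjusted p = 2.44e-06). Of 26 leukocyte markers 1 was higher and 19 lower, with a median of -1.11, of 14 fibroblast markers 8 and 2, of 9 endothelial markers 0 and 2, of 11 epithelial markers 0 and 6, of 5 mesothelial markers 2 and 0, and of 10 smooth muscle and pericyte markers 6 and 1. Their part in the differences of the 5 genes was not tested.

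For Fosl2 the difference was -0.32 (standard error 0.1, adjusted p = 0.023), and the call was lost without any 1 of 6 libraries, WT vehicle replicate 3, Pear1-/- vehicle replicate 2, WT bleo replicates 1 and 3, and Pear1-/- bleo replicates 1 and 3 (-0.37 to -0.26, adjusted p between 0.0555 and 0.0675). It was also lost with scaling by total counts. The other 5 genes did not pass the test of the difference. It was 0.10 for Fos (adjusted p = 0.268), -0.19 for Fosb (adjusted p = 0.117), 0.01 for Jun (adjusted p = 0.979), 0.06 for Egr1 (adjusted p = 0.61) and -0.03 for Ier2 (adjusted p = 0.83). With scaling by total counts, Fos (0.25, adjusted p = 0.000734) and Egr1 (0.21, adjusted p = 0.00728) passed it. Jun, Egr1 and Ier2 were the members that fell under bleo in both genotypes. Without WT vehicle replicate 2, Fosb was called at -0.34 (adjusted p = 2.07e-05) and Ier2 at -0.18 (adjusted p = 0.049), beside the same 5 genes. In that fit 46.4% of all genes were called.

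In the vehicle groups, the comparison asked whether the genotype label alone went with a change. None of the 10 genes passed the test between Pear1-/- vehicle and WT vehicle in edgeR's quasi-likelihood test with all libraries, where 4.50% of all genes were called (0.855% higher and 3.65% lower, 2.36% also past 2-fold), while 5 had an unadjusted p under 0.05. How many of all genes had such an unadjusted p was not counted. Without a filter on low counts 4 genes were called, beside 13.8% of all genes. Limma (6.31% of all genes), DESeq2's Wald test (8.54%) and robust estimation of the dispersion (7.24%) called 1 each. The log2 differences were between 0.09 and 0.29 for 9 of the 10 genes and -0.03 for Atf3 (adjusted p = 0.703). The largest were those of Jund (0.29, adjusted p = 0.0591), Fosl1 (0.26, adjusted p = 0.245), Fosl2 (0.22, adjusted p = 0.067) and Junb (0.19, adjusted p = 0.0682), and these 4 were also the genes without overlap between the vehicle groups. The share of all genes without such overlap was not counted, so this describes the 4 genes only. The median of the 10 genes was 0.17 and that of all genes -0.00. Scaling by total counts alone put the median of all genes at -0.15 and that of the members at 0.02, and turned the sign of Fos, Fosb and Jun.

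WT vehicle replicate 2 decided this result. It had the highest value of its group for every member except Atf3. Without it, 9 of the 10 genes were higher in Pear1-/- vehicle, all except Atf3 (0.04, adjusted p = 0.524), beside 55.2% of all genes called in either direction. The log2 fold changes of the 9 then ran from 0.21 for Jun (adjusted p = 0.000368) and 0.22 for Fos (adjusted p = 2.75e-05) through 0.34 for Egr1 (adjusted p = 4.91e-08) and 0.34 for Junb (adjusted p = 3.79e-08) to 0.49 for Jund (adjusted p = 3.64e-06). Without any 1 of the other 11 libraries, 0 of the 10 were called. Leukocyte markers moved along: without this library 17 of the 26 were higher and 0 lower in Pear1-/- vehicle, and their summed level lay between 19682 and 23004 CPM in that group. Of this, Jchain made up between 14519 and 18162 CPM, and the other 25 markers between 4804 and 5163 CPM, against 3535 and 3488 CPM in WT vehicle replicates 1 and 3 and 4938 CPM in replicate 2. Without the same library 6 of 14 fibroblast markers were higher and 6 lower, 5 of 9 endothelial markers higher and 0 lower, 7 of 11 epithelial markers higher and 1 lower, 0 of 5 mesothelial markers higher and 2 lower, and 4 of 10 smooth muscle and pericyte markers higher and 3 lower. Their part in the result was not tested.

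**Figure D4:**
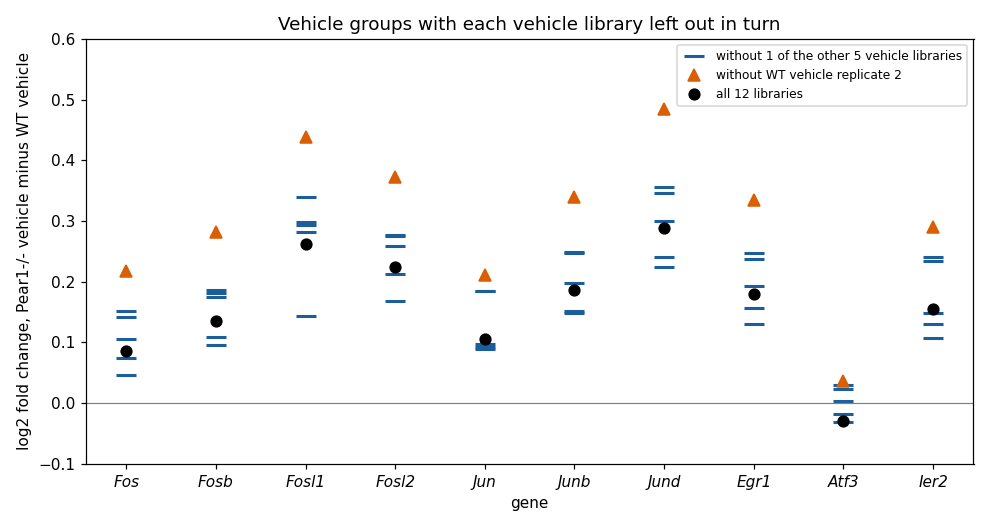
Log2 fold change of the 10 genes between Pear1-/- vehicle and WT vehicle (vertical axis) with all 12 libraries (circles), without WT vehicle replicate 2 (triangles) and without 1 of the other 5 vehicle libraries (dashes). The triangle lies above the circle and the dashes for every gene, and 9 of the 10 triangles lie between 0.21 and 0.49 on the log2 scale.

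The last comparison set the 2 bleo groups side by side, to ask how the genotype label went with these genes in the injured lung. Jund, Atf3 and Junb were lower and Fosl1, Egr1 and Fos higher in Pear1-/- bleo than in WT bleo. The 6 of 10 genes called, 3 in each direction, stand beside 46.0% of all genes (22.1% higher and 23.9% lower). Jund and Fosl1 exceeded 2-fold, as did 15.0% of all genes. The WT bleo and Pear1-/- bleo libraries also enter the comparisons with vehicle above, so these are not separate evidence.

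Jund lay between 769.6 and 817 normalized counts in WT bleo and between 317 and 332 in Pear1-/- bleo, 2.46-fold lower (log2 fold change -1.30, standard error 0.086, adjusted p = 1.26e-08 in edgeR's quasi-likelihood test). Atf3 was 1.95-fold lower (log2 fold change -0.96, standard error 0.051, adjusted p = 1.36e-09), with 9402 ± 247 normalized counts (SD, n = 3) against 18127 ± 427. Junb was 1.41-fold lower (log2 fold change -0.49, standard error 0.06, adjusted p = 8.4e-06), with 21343 ± 146 against 29740.1 ± 821. No library of one group reached the other for these genes. Fosl1 was 2.26-fold higher, with 84.3 ± 8.41 against 37.0 ± 2.68 (log2 fold change 1.17, standard error 0.16, adjusted p = 2.46e-05). Its raw counts were between 34 and 102 in all 12 libraries, so counting error is a larger part of its spread than for the other members.

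Egr1 was 0.24 log2 units higher (standard error 0.061, adjusted p = 0.00426) and Fos was 0.19 higher (standard error 0.049, adjusted p = 0.00535). Both groups of libraries were separated for each gene. The call of Egr1 was lost without any 1 of WT bleo replicates 2 and 3 and Pear1-/- bleo replicates 1 and 2 (0.22 to 0.23, adjusted p between 0.0613 and 0.0661), and that of Fos without any 1 of the 6 bleo libraries (0.17 to 0.19, adjusted p between 0.0617 and 0.0936). With limma the call of Fos was lost too (0.20, adjusted p = 0.0534). Jun (0.11, adjusted p = 0.122) and Ier2 (0.12, adjusted p = 0.177) did not pass the test although their bleo groups did not overlap. Fosb (-0.05, adjusted p = 0.528) and Fosl2 (-0.09, adjusted p = 0.307) overlapped.

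Markers of cell types moved between the bleo groups as well. The log2 fold change of Ptprc was -1.19 (adjusted p = 3.71e-08), the same direction as Jund, Atf3 and Junb, and 18 of 26 leukocyte markers were lower and 2 higher, with a median of -0.72. Their summed level lay between 15795 and 16022 CPM in Pear1-/- bleo and between 18161 and 18492 CPM in WT bleo, with no defining marker at 0. Jchain went against the list, between 7794 and 8101 CPM in Pear1-/- bleo and between 977 and 1049 CPM in WT bleo, while the other 25 markers lay between 7883 and 8001 CPM in Pear1-/- bleo and between 17184 and 17443 CPM in WT bleo. Pdgfra was higher by a log2 fold change of 0.80 (adjusted p = 1.47e-07), and 8 of 14 fibroblast markers were higher and 1 lower, with summed levels between 36530 and 37391 CPM against 14672 to 14820 CPM. The matrix genes Col1a1, Col1a2, Col3a1 and Fn1, split off after their values were seen, carried this, with 34029 to 34884 CPM against 12612 to 12755 CPM, and the other 10 markers summed to 2463 to 2508 CPM against 2041 to 2066 CPM. Of 9 endothelial markers 2 were higher and 2 lower, of 11 epithelial markers 2 and 6, of 5 mesothelial markers 4 and 0, and of 10 smooth muscle and pericyte markers 5 and 3. Their part in the differences of the 10 genes was not tested.

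Several members share bases with another gene on the opposite strand. Shared bases were counted over whole gene spans, introns included, and the overlap of exons was not measured. The cDNA kit does not mark strand, so reads in exons that overlap cannot be told apart. Fosl1, with an exonic length of 2033 bases, shares 2767 bases of its span with Ccdc85b. That gene had more counts over all libraries (1788) than Fosl1 (829). The log2 difference of Ccdc85b between the bleo groups was 0.15 (adjusted p = 0.305), while in WT bleo it fell by 0.49 against vehicle on the log2 scale (adjusted p = 0.00137), the direction of Fosl1 there. The values of Fosl1 are uncertain to the extent that the exons overlap. Junb shares 351 bases with Prdx2, which had 12843 counts against 273372 for Junb, and Jun shares 689 bases with Junos, which had 317 against 184242. Atf3 shares 108 bases with Gm24748, which had 11 counts, and Jund shares 919 bases with Gm11175, which has no entry among the counted genes. Prdx2 rose by 0.91 log2 units in WT bleo, the direction of Junb there, from 669.8 ± 43.4 to 1246 ± 21.4 normalized counts, and averaged 1502 ± 19.5 in Pear1-/- bleo, the opposite order to Junb.

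Genes of the same pathway were counted by lists, whose counts are descriptions to be read beside the shares of all genes called above. AP-1 partners of the ATF, MAF and BATF families, 17 of which were tested, had 9 higher and 5 lower in WT bleo against WT vehicle and 4 higher and 9 lower in Pear1-/- bleo against its vehicle. Nfe2l2, which encodes the oxidative stress factor NRF2, rose by 1.26 (WT) and 0.29 (Pear1-/-) in log2 units, a difference between the effects of -0.97 (adjusted p = 8.05e-06). Between the bleo groups, 2 partners were higher in Pear1-/-, namely Atf1 (0.24) and Atf2 (0.29), and 10 were lower, Maff (-1.10) and Maf (-0.97) among them.

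Of 42 other immediate early genes, 17 rose and 13 fell in WT bleo, and 13 rose and 21 fell in Pear1-/- bleo, each against its vehicle. Ier5, a relative of Ier2, averaged 489.8 (WT) and 653 (Pear1-/-) normalized counts under vehicle and 3503 (WT) and 833 (Pear1-/-) under bleo, with a log2 fold change of 2.85 in WT and a difference between the bleo effects of -2.49 (adjusted p = 3.69e-08). Mcl1, which encodes a survival protein of the BCL2 family, rose by 1.70 log2 units in WT bleo and differed by -1.14 between Pear1-/- bleo and WT bleo. The matricellular genes Ccn1 and Ccn2 went the other way: in WT bleo Ccn1 fell by 1.81 and Ccn2 fell by 0.92 on the log2 scale, and Ccn2 was 0.91 higher in Pear1-/- bleo than in WT bleo. Cebpb, a leucine zipper factor of myeloid and stromal cells, showed a difference between the bleo effects of -2.18 (adjusted p = 3.34e-07). Over the list the interaction gave 6 higher and 21 lower.

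Upstream of these genes, 11 of 24 kinases of the MAPK cascades rose and 5 fell in WT bleo, against 9 and 6 in Pear1-/- bleo. Rps6ka1, which encodes the ribosomal S6 kinase RSK1, rose by 2.20 log2 units in WT bleo, differed by -1.29 between the bleo groups, and had a difference between the bleo effects of -1.70 (adjusted p = 3.95e-07). Mapk14, which encodes p38 alpha, differed by -1.12 log2 units between the bleo groups, lower in Pear1-/- (adjusted p = 5.27e-08). Of 14 factors that switch on immediate early genes, 6 rose and 1 fell in WT bleo, and 1 rose and 6 fell in Pear1-/- bleo. Nfkb1, which encodes an NF-kappaB subunit, averaged 1135 normalized counts under bleo in WT mice and 611 in Pear1-/- (log2 fold change -0.91, adjusted p = 3.22e-08), while Elk3, a partner of SRF, rose in both genotypes, by 1.30 log2 units in WT. Stat3 was 0.41 higher in Pear1-/- bleo. Between the bleo groups, 1 kinase was higher and 8 lower, and 1 factor higher and 6 lower.

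Feedback inhibitors of MAPK signalling included 5 that rose and 10 that fell of 20 in WT bleo, and 4 and 8 in Pear1-/- bleo. Spry1, a Sprouty inhibitor of receptor signalling, fell by 1.89 in WT and fell by 1.78 in Pear1-/- on the log2 scale. Errfi1, which encodes an inhibitor of the EGF receptor, had mean normalized counts of 3844 (WT) and 5745 (Pear1-/-) under vehicle and 1389 (WT) and 4664 (Pear1-/-) under bleo, with a difference between the bleo effects of 1.16 (adjusted p = 0.00135). The EGR1 corepressor Nab2 was 0.39 higher in Pear1-/- vehicle than in WT vehicle (adjusted p = 0.0448). Among 25 known AP-1 target genes, 18 rose and 4 fell in each genotype under bleo, and 8 were higher and 6 lower in Pear1-/- bleo than in WT bleo. Spp1, which encodes osteopontin, had mean normalized counts of 873 (WT) and 799.6 (Pear1-/-) under vehicle and 27776 (WT) and 87909 (Pear1-/-) under bleo, and Timp1, an inhibitor of metalloproteinases, rose by 3.40 on the log2 scale in Pear1-/- bleo. Plau, which encodes urokinase, rose by 2.79 in WT bleo and differed by -1.33 between Pear1-/- bleo and WT bleo, whereas the collagen crosslinking enzyme Lox was 1.83 higher there. The targets thus moved in both directions between the bleo groups, as the members did.

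Heat shock genes, which often move with handling of cells, had 1 higher and 11 lower of 16 in WT bleo and 0 higher and 13 lower in Pear1-/- bleo. In log2 units, Hspb1 fell by 1.62 in WT bleo and Hspa1a fell by 1.32 in Pear1-/- bleo. Between the bleo groups 6 were higher, with Hspb1 at 1.09, and 5 lower, with Hspa1b at -0.84. Their part in the changes of the 10 genes was not tested. Between the vehicle groups, the 7 pathway lists had between 0 and 2 genes called in a direction, and without WT vehicle replicate 2 the 42 other immediate early genes had 31 higher and 3 lower.

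Likeness of pattern was measured as the root mean square difference between genes in log2 CPM, each centred on its own mean over the 12 libraries, which share depth and composition. Jun and Ier2 differed by 0.0479, with Jun itself varying by 0.200 and Ier2 by 0.240 around their means. The measure grows with a gene's own variation, which ran from 0.0923 for Fos and 0.104 for Fosb to 0.655 for Egr1, so distances are not compared between members. Among 10445 other genes, none of them below a mean of 3 log2 CPM, the nearest to Jun were Ehd1 (0.051), Kit (0.053) and Maf1 (0.054), and Ehd1 was also the nearest to Ier2 (0.051). The nearest to Fos were Emc3 (0.026) and 4833439L19Rik (0.027), to Fosb Itm2c (0.044), and to Fosl2 Map2k1 (0.038), which encodes the kinase MEK1. The nearest to Junb was Timp2 (0.039), to Egr1 Serping1 (0.041) and to Atf3 Ppp1r12c (0.076). The nearest to Jund, which varied by 0.492, was Lars2 (0.105), and to Fosl1, which varied by 0.472, Il1r1 (0.138).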

How the data were processed

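The authors sorted Cd140a+ lung cells, isolated RNA with TRIzol, made full-length cDNA with SMART-Seq v4 and libraries with TruePrep V2, and aligned paired reads to GRCm38 (mm10) with HISAT2. The submitters' processing notes also name FastQC. The counting program is not given in the sources used here. The authors deposited raw counts of 40760 genes in 12 libraries, and the same values as normalized expression, a signal made by dividing each library's counts by 1 DESeq2 size factor. Dividing out the size factor gave back whole reads for 100% of values (tolerance 0.01 reads). Those recovered reads equal the deposited counts for 100% of values. Their call of 11838 genes in WT bleo against WT vehicle, as with the deposited counts, was thus fixed in advance. Depth was between 6702948 and 10447101 counted reads per library, and the floor of 3 counts covers counting error only.

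Samples were grouped by the labels of genotype and treatment. Counts were tested with edgeR 4.0.16 (R 4.3.3), two-sided quasi-likelihood test, TMM, edgeR's filter on low counts (17418 genes kept), 1 mean per group over all 12 libraries, and Benjamini-Hochberg adjustment over all genes kept, after the code had been tested on simulated data. The study used limma, which is an alternative here (limma 3.58.1, pseudocount 1) because the files hold counts. A gene was called at an adjusted p under 0.05. The other alternatives were no filter, DESeq2 1.42.0 size factors and Wald test, a replicate block, each library left out, and only the 2 groups compared. Chosen after seeing the data were robust dispersion, scaling by total counts, and the recovered reads.

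The text names all 10 members, Pear1, Pdgfra and Ptprc as checks, from each pathway list genes among the 3 largest rises and 3 largest falls called (mean log2 CPM not below 3), and the 3 nearest genes of a member. Ccdc85b, Prdx2, Junos, Gm24748 and Gm11175 were named after their overlap was seen, and Jchain, Cd68, Csf1r, Ctss, S100a8, Cd3d, Col1a1, Col1a2 and Col3a1 after their values were seen. The members and lists were chosen with earlier results of these data known. Fn1 is in both the fibroblast and the AP-1 target list. Exonic lengths came from GENCODE M21 and promoters from RefSeq. Figures were drawn with matplotlib 3.10.9 in Python 3.11.15.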

Additional observations from a re-analysis of the deposited data

Results flagged for a closer look

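The bleo effect differed between the genotypes, by the interaction in edgeR's quasi-likelihood test, for 5 of the 10 genes, where 37.0% of all genes were called. The difference, Pear1-/- minus WT on the log2 scale, was -1.59 for Jund, -0.93 for Atf3, -0.68 for Junb, -0.32 for Fosl2 and 0.91 for Fosl1. Jund rose under bleo in all 3 WT libraries and was lower in all 3 bleo libraries labelled Pear1-/- than in their vehicle libraries. Fosl1 is the least abundant of the 5, and its reads cannot be told apart from those of Ccdc85b where the genes overlap. The call of Fosl2 depended on which libraries were included. Dixon's check of single samples needs groups of at least 4 libraries and was not run. WT vehicle replicate 2 stood apart from its group in its counts, and without it the 5 differences kept their direction and calls. Cell type markers differed in the same test, Ptprc by -1.40 (adjusted p = 7.85e-07) and Pdgfra by 0.94 (adjusted p = 2.44e-06), and of 26 leukocyte markers 1 was higher and 19 lower, with a median of -1.11, and of 14 fibroblast markers 8 and 2. Their part in the differences of the 5 genes was not tested.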

How the results depend on the processing

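Of the 10 genes, leaving out 1 library at a time called 0 to 9 in the vehicle comparison, 8 to 9 in WT bleo, 6 to 8 in Pear1-/- bleo, and 4 to 7 both between the bleo groups and for the interaction. The upper ends were reached without WT vehicle replicate 2, where 55.2%, 76.4%, 68%, 49.2% and 46.4% of all genes were called, in that order. The vehicle comparison called 4 genes without a filter on low counts (13.8% of all genes) and 1 with DESeq2's Wald test (8.54%), limma (6.31%) or robust dispersion (7.24%). In WT bleo against WT vehicle, Fos changed sign, to -0.012 with DESeq2 size factors or DESeq2's Wald test, -0.013 with only the 2 groups, and -0.078 with total counts (-0.021 to 0.14 over left-out libraries), and Fosb to 0.078 without a filter (-0.090 to 0.086). Fosl1 in Pear1-/- bleo ran from -0.034 to 0.10. In the vehicle comparison total counts gave -0.061 for Fos, -0.011 for Fosb and -0.044 for Jun, and no filter gave 0.067 for Atf3 (-0.031 to 0.037 over left-out libraries). In the interaction, no filter gave -0.075 for Jun and -0.016 for Egr1, total counts gave 0.12 for Ier2, and left-out libraries gave -0.038 to 0.14 for Fos, -0.11 to 0.023 for Jun, -0.10 to 0.11 for Egr1 and -0.18 to 0.015 for Ier2. None of these genes was called in that comparison as reported. Fos at -0.078 with total counts had adjusted p = 0.0490, where 10 of the 10 genes were called, 4 higher and 6 lower, beside 67% of all genes. The cause was not tested. The median of all genes moved to -1.48 (WT bleo), -0.37 (vehicle) and 0.41 (interaction) without a filter, because it then includes genes with few counts. With the longest transcript as length, 2 genes in WT vehicle and 4 in Pear1-/- vehicle changed place in the order of levels per kilobase, and 0 in either bleo group. The fit of only the 2 groups could not be made for the interaction, and between the bleo groups it called 9 genes, 5 higher and 4 lower. The share of all genes called in that fit is not given here.

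The counts of genes called on the 13 lists changed by over 1.5 times for 177 of 273 values in the vehicle comparison, for 19 of 273 between the bleo groups, 9 of 260 in the interaction, 1 of 273 in WT bleo and 0 of 273 in Pear1-/- bleo. Without WT vehicle replicate 2, the vehicle comparison called 12 AP-1 partners (10 higher, 2 lower), 15 kinases (13 and 2), 10 upstream factors (9 and 1), 15 feedback inhibitors (13 and 2), 16 AP-1 targets (10 and 6) and 11 heat shock genes (9 and 2).

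In the fit blocked by replicate number, 8, 7, 0, 6 and 5 of the 10 genes were called in WT bleo, Pear1-/- bleo, vehicle, between the bleo groups and for the interaction, Fos in Pear1-/- bleo being the call lost (0.12, adjusted p = 0.0681). Of all genes, 67.1%, 61.4%, 4.04%, 44.7% and 35.3% were called in that fit, in the same order. The pairing of numbers was checked by the correlation of deviations from the group means. It ran from -0.293 to 0.181 (median -0.0181) over 18 library pairs of the same number and from -0.166 to 0.219 (median 0.0136) over 36 pairs of different numbers. By this measure no pairing by number was seen. Deviations from means of so few libraries cannot tell whether libraries shared a preparation.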
